A study of Mus musculus with 1753 samples.

Results

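The laminin chains and nidogens of mouse skeletal muscle are described here through 10 genes: the alpha chains Lama2, Lama3, Lama4 and Lama5, the beta chains Lamb1 and Lamb2, the gamma chains Lamc1 and Lamc3, and the nidogens Nid1 and Nid2. They were found by Ensembl identifier among the 46517 genes of a table of read counts in single cells, of which 30309 genes had a count. All 10 had counts. The question was which laminins each type of fibroblast or mural cell (the smooth muscle cells and pericytes of vessel walls) holds the transcripts for. The study had sorted 1753 cells of adult male mice, 10 to 20 weeks old, and sequenced each as full-length cDNA. The labels give each cell a cluster number from 1 to 10 and a strain. C57BL6 carries no reporter and was sorted with antibodies to PDGFRα or PDGFRβ. Acta2GFP, Cspg4dsRED and PdgfrbGFP are transgenes that put a fluorescent protein under the promoter of the named gene, and the PdgfraGFP - PdgfrbGFP pool, called the pool from here on, joins cells of PdgfrbGFP mice and of mice with a nuclear GFP at the Pdgfra locus. All lines had been backcrossed to C57Bl6/J, cells with the endothelial protein CD31 had been gated out, and elastase had been added in the dissociation of Acta2GFP muscle. Zygosity is not given in the sources used here, nor is the number of animals behind each strain label, with 1 exception. The study states that soleus muscles of 1 Pdgfra reporter mouse and 1 PdgfrbGFP mouse were joined before dissociation. Each strain label was taken as 1 replicate, so that n below is a number of strain labels, and whether PdgfrbGFP and the pool share an animal is not known.

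Laminins are the cross-shaped glycoproteins that lay down basement membranes, the thin sheets of matrix around muscle fibres and vessels. Each is a trimer of an alpha, a beta and a gamma chain, joined through a coiled coil before it leaves the cell, and its name gives the numbers of its alpha, beta and gamma chain in that order. The alpha chain carries the end that cells hold through integrins and dystroglycan, the gamma chain holds the nidogens, and nidogens tie the laminin sheet to type IV collagen and perlecan. Loss of the alpha chain encoded by LAMA2 causes a congenital muscular dystrophy in humans.

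Clusters 1, 3, 5, 6 and 8 made the class called endomysial here, after the tissue between single fibres (1116 cells). Clusters 2 and 9 were perimysial, from around fibre bundles (328 cells), and cluster 4 was paramysial (60). Cluster 10 (62) is called by its number. The study describes it as fibroblasts that express Cspg4, Pdgfra and Ngfr, and places them at the edge of nerve fibres. Cluster 7 was mural (187). The study anticipates perivascular fibroblasts and fibroadipogenic progenitors among the endomysial cells too, and leaves this to further work. Where each endomysial cell lay in the muscle is therefore not known. Cells held 46097 to 1055869 counts, with a median of 258251. Class medians ran from 156959 counts in mural to 595321 in paramysial cells. The labels were checked against markers, as summed counts per 500000 counts of a cell, the scale of all levels below. The 6 mural markers summed to 7474 to 11830 in mural cells of the 5 strain labels and to 147 ± 124 (SD, n = 5) in endomysial cells. The 5 fibroblast markers summed to 111 to 624 in mural cells and to 7087 to 9261 in endomysial cells. In C57BL6, the 9 mural cells also held 608 counts of 7 immune markers, against 0.437 to 6.96 in mural cells of the other strain labels. No 2 cells had identical counts (0 pairs of columns). The authors had made the clusters from these same counts, so each p-value below describes the clusters and is no independent evidence for them. Levels are given in the order Acta2GFP, C57BL6, Cspg4dsRED, pool and PdgfrbGFP.

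Mural cells and fibroblasts held different alpha chains. Lama5 (ENSMUSG00000015647, GRCm38 chromosome 2, 180176373 to 180225859, minus strand), the alpha chain of laminins in mature vessel walls and epithelia, stood at 244, 98.95, 114, 272 and 192 counts per 500000 in mural cells. In the 1566 cells of the other clusters, called fibroblasts from here on, it ranged from 0.300 to 2.75. Every mural value lay far above every fibroblast value, and Lama5 was higher in mural cells by 6.95 ± 0.50 on the log2 scale (SE; quasi-likelihood test of edgeR, adjusted after Benjamini-Hochberg, p = 0.00012, higher in 5 of 5 strain labels). Within the mural class the cells were unequal. In Cspg4dsRED 36 of 74 cells had a Lama5 count and 20 reached 100 counts per 500000, and in Acta2GFP these were 52 and 33 of 56 cells.

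Lama2 (ENSMUSG00000019899, chromosome 10, 26980036 to 27619758, minus strand), the main alpha chain of the muscle fibre's basement membrane, stood at 336, 465, 208, 471 and 294 counts per 500000 in endomysial cells. In mural cells it was 8.55, 69.4, 1.48, 77.3 and 8.29, and in perimysial cells 190, 191, 31.6, 96.1 and 83.8. Neither class overlapped with endomysial cells. Among mural cells the fibroblast markers summed to 589, 403, 111, 624 and 465.5, and their part in the mural Lama2 values was not tested. Lama2 was lower in mural cells than in fibroblasts by a log2 difference of −4.69 ± 0.74 (edgeR, adjusted p = 0.0039) and lower in perimysial than in endomysial cells by −1.65 ± 0.31 (edgeR, adjusted p = 0.0215), each in 5 of 5 strain labels. The perimysial call was lost without C57BL6 (adjusted p = 0.061), without the pool (0.0986) and without PdgfrbGFP (0.09).

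The stretches from 250 bases before to 50 after the RefSeq start of both genes are shown because these alpha chains led in opposite classes. They are given 5′ to 3′ on the gene's strand, from GRCm38.p6, with GC boxes (GGGCGG, or CCGCCC on the other strand) in capitals. The RefSeq start of Lama2 lies inside the span of the annotated gene. Lama2 is at chr10:27616893-27617192 and Lama5 at chr2:180225810-180226109.
Lama2: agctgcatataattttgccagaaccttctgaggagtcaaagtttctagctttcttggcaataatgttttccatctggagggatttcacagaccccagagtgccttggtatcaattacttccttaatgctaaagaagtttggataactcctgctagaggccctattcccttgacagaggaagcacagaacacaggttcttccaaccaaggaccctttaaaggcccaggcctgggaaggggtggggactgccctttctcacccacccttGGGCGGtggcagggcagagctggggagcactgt
Lama5: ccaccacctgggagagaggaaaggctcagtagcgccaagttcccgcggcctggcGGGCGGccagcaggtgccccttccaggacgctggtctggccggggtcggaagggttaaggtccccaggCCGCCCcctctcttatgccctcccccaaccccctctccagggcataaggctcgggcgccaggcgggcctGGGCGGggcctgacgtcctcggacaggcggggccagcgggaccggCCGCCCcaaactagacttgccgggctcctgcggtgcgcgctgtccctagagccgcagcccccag
The Lama2 stretch held 1 GC box and 1 CG pair, and 5.40% of 32851 promoters of the same length held fewer CG pairs. The Lama5 stretch held 4 GC boxes and 24 CG pairs, with 80.0% of promoters holding fewer. A GC box was found in 35.7% of all these promoters, and a TATAAA (either strand) in 13.6% and in neither of these stretches. A match of letters is not a binding site.

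Lama4 (ENSMUSG00000019846, chromosome 10, 38965515 to 39110188, plus strand), a short alpha chain known from capillaries and mesenchyme, was high in endomysial cells and low in both mural and perimysial cells. It stood at 164, 175, 77.2, 184 and 166 counts per 500000 in endomysial cells, at 54.7, 5.15, 21.3, 24.5 and 44.0 in mural cells and at 39.4, 33.7, 1.70, 25.9 and 22.1 in perimysial cells. All mural and perimysial values lay below all endomysial values. The log2 difference was −2.56 ± 0.56 for mural cells against fibroblasts (edgeR, adjusted p = 0.0157) and −3.02 ± 0.42 for perimysial against endomysial cells (adjusted p = 0.0061), with 5 of 5 strain labels lower in each. The mural call was lost without the pool (adjusted p = 0.0608) and without PdgfrbGFP (0.0538).

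Lama3 (ENSMUSG00000024421), best known as the alpha chain of the laminin that anchors epithelia, was rare everywhere. Perimysial cells held 5.30, 26.8, 0, 12.8 and 11.05 counts per 500000, and endomysial cells 0 to 0.187. The groups overlapped only through Cspg4dsRED, where 0 of 18 perimysial cells had a count. Lama3 was higher in perimysial cells by 7.14 ± 1.11 on the log2 scale (edgeR, adjusted p = 0.0147, higher in 4 of 5 strain labels). The call was lost without Acta2GFP (adjusted p = 0.0693) and without the pool (0.0905), and without C57BL6 or PdgfrbGFP the gene did not pass the filter on low counts. A few cells carried the level. In C57BL6, 41 of 152 perimysial cells had a Lama3 count, 14 reached 100 counts per 500000, and the highest held 644. In mural cells Lama3 stood at 0 to 8.89 and was not called (log2 difference −0.98 ± 1.93, adjusted p = 0.81).

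**Figure D1:**
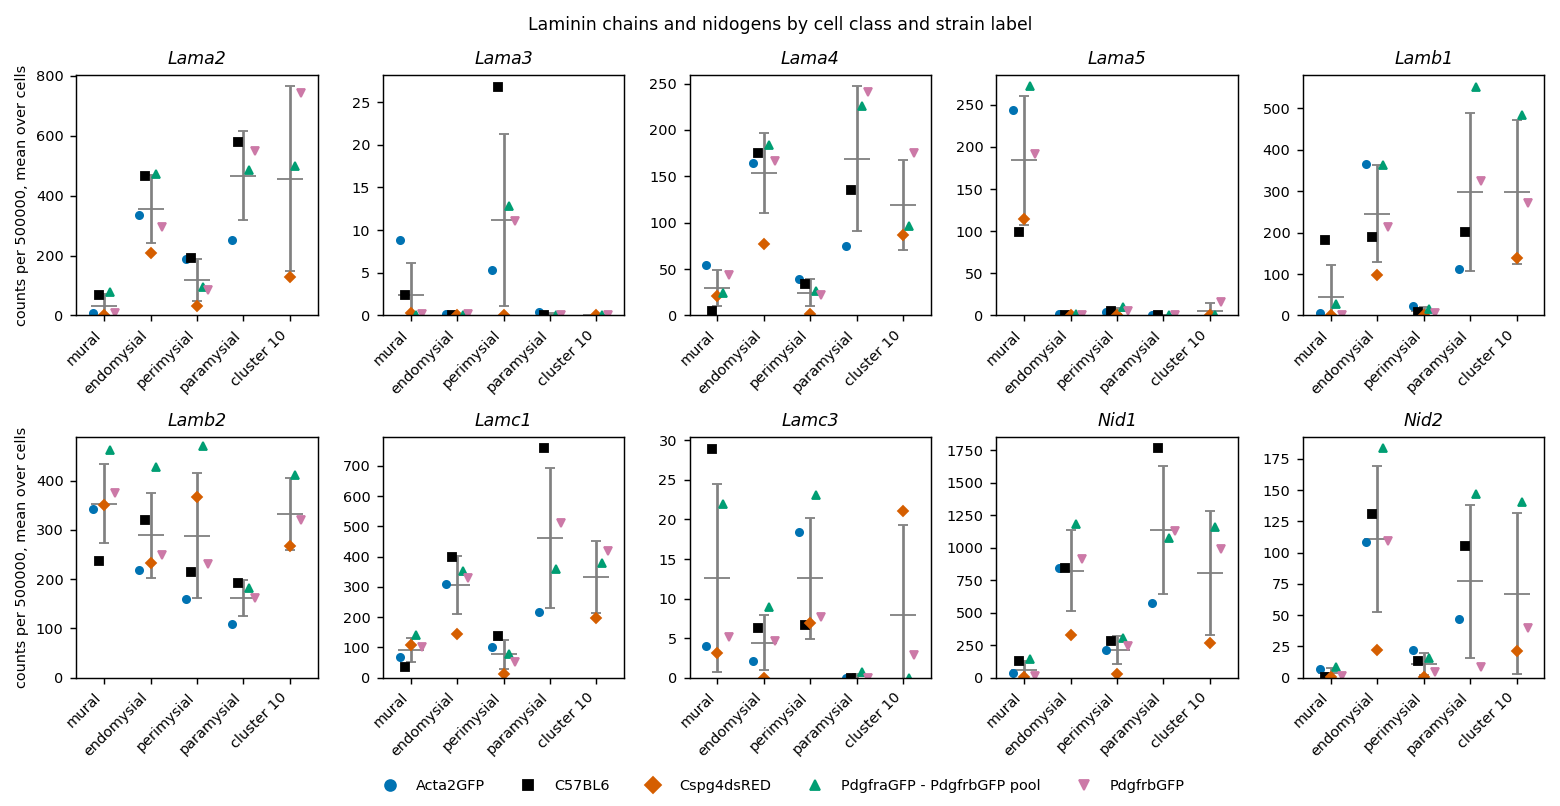
Level of each gene (y axis, linear, counts per 500000 counts of a cell, averaged over cells) in 5 cell classes (x axis); each point is 1 strain label with 3 or more cells, and the grey dash and bar are mean and SD over strain labels, with bars below 0 not drawn. Lama5 stands at 98.95 to 272 in mural cells and at or under 15.7 elsewhere, Lamb2 at 110 or more in each class, and Lamb1 at or under 22.3 in perimysial cells.

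The beta chains differed in how widely they were found. Lamb2 (ENSMUSG00000052911, chromosome 9, 108479736 to 108490530, plus strand), the beta chain concentrated at the neuromuscular junction and in vessel walls, stood at 342, 237, 350.98, 461 and 374 counts per 500000 in mural cells, at 218, 319, 233, 428 and 248 in endomysial cells and at 159, 214, 366, 471 and 231 in perimysial cells. These ranges overlapped widely. Perimysial and endomysial cells differed by 0.01 ± 0.22 on the log2 scale (edgeR, adjusted p = 0.99). In mural cells Lamb2 was called higher than in fibroblasts by 0.66 ± 0.19 (edgeR, adjusted p = 0.0441), although its mean level per cell was higher in only 4 of 5 strain labels. That call was lost without Acta2GFP (adjusted p = 0.142), the pool (0.154) or PdgfrbGFP (0.169), and under 4 other settings.

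Lamb1 (ENSMUSG00000002900, chromosome 12, 31265234 to 31329644, plus strand), the beta chain of most embryonic and many adult laminins, was restricted. It stood at 365, 190.1, 97.9, 363 and 215 counts per 500000 in endomysial cells and at 22.3, 8.99, 0.81, 16.5 and 6.18 in perimysial cells, with no overlap. The log2 difference of −5.09 ± 0.46 (edgeR, adjusted p = 0.00084, lower in 5 of 5 strain labels) kept its call under all 12 alternatives run. In mural cells Lamb1 was 6.46, 182, 0.25, 26.7 and 1.76. The value of C57BL6 lay within the range of the fibroblasts, 94.5 to 359, and the others lay below it.

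The C57BL6 value rested on few cells. Of its 9 mural cells 3 had a Lamb1 count, 2 reached 100 counts per 500000, and the highest held 859.6; without that cell the mean was 97.3. Low counts of Lamb1 were common elsewhere: 46 of 56 mural cells of Acta2GFP and 11 of 11 of the pool had one, but only 0 and 1 of them reached 100 per 500000. Mural cells were called lower than fibroblasts by −5.14 ± 1.37 (edgeR, adjusted p = 0.0358, lower in 4 of 5 strain labels). The call was lost without Acta2GFP (adjusted p = 0.114), Cspg4dsRED (0.0661), the pool (0.0859) or PdgfrbGFP (0.123), and was kept without C57BL6. The immune markers, given above, were also highest in the C57BL6 mural cells. In mural cells of the other strain labels they summed to 0.437 to 6.96, too few counts to set against Lamb1. The part of immune transcripts in the C57BL6 value was not tested.

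The same stretch before the start of the beta chain genes is shown for the chain found in every class beside the restricted one. Lamb1 is at chr12:31265043-31265342 and Lamb2 at chr9:108479612-108479911, with GC boxes in capitals.
Lamb1: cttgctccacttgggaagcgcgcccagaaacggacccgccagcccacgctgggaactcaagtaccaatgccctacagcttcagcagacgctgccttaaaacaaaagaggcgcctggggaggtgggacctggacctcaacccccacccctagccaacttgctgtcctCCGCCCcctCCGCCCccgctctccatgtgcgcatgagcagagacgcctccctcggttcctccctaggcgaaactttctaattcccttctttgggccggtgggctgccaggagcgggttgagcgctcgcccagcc
Lamb2: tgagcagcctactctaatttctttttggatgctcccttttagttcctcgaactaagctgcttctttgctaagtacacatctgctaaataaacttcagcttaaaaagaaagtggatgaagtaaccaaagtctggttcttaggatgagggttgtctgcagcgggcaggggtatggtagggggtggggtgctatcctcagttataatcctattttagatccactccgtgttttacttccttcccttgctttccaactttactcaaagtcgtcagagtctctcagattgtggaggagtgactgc
Lamb1 held 2 GC boxes and 18 CG pairs, with 70.3% of promoters holding fewer pairs. Lamb2 held 0 GC boxes and 4 CG pairs, with 31.4% holding fewer. RefSeq promoters were matched for 5 of the 10 genes.

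Lamc1 (ENSMUSG00000026478, chromosome 1, 153218922 to 153332786, minus strand), the gamma chain of nearly all laminins, stood at 309, 397, 144, 350.9 and 331 counts per 500000 in endomysial cells. Mural cells held 69.3, 34.8, 107, 142 and 100.4, and perimysial cells 102, 138, 11.99, 79.2 and 52.8. Both classes lay below endomysial cells without overlap, though by a narrow margin at the edges. The log2 difference was −1.66 ± 0.31 for mural cells against fibroblasts (edgeR, adjusted p = 0.0086) and −2.01 ± 0.26 for perimysial against endomysial cells (adjusted p = 0.0044), each with 5 of 5 strain labels lower. Lamc3 (ENSMUSG00000026840, chromosome 2, 31887291 to 31946539, plus strand), a gamma chain outside most basement membranes, ranged from 0 to 28.9 over all classes and strain labels and was called in neither comparison (log2 difference 0.70 ± 0.85, adjusted p = 0.67, and 1.71 ± 1.14, adjusted p = 0.56). In each strain label 1 mural cell with 132.8 to 259.7 counts per 500000 made up most of its mural level. Of the exonic bases of Lamc3, 6.27% are shared with Gm13441 on the other strand, and it is not stated whether the counting used strand.

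Both nidogens followed the fibroblasts. Nid1 (ENSMUSG00000005397, chromosome 13, 13437551 to 13512269, plus strand), the main linker between laminin and type IV collagen, stood at 846, 842, 326, 1185 and 911 counts per 500000 in endomysial cells. It was 34.0, 125, 1.28, 139.8 and 10.4 in mural cells and 216, 278, 24.7, 304 and 242 in perimysial cells, without overlap with endomysial cells in either. Without its highest cell, at 1303, the mural Nid1 level of the pool (11 cells) fell to 23.4. That of C57BL6 (9 cells) fell to 68.9 without a cell at 577. The log2 differences were −4.50 ± 1.02 for mural cells against fibroblasts (edgeR, adjusted p = 0.0181) and −2.10 ± 0.22 for perimysial against endomysial cells (adjusted p = 0.0016). The mural call was lost without Acta2GFP (adjusted p = 0.0549) and without PdgfrbGFP (0.0603).

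Nid2 (ENSMUSG00000021806, chromosome 14, 19751265 to 19811787, plus strand), the second nidogen, can stand in for Nid1 in many basement membranes. It stood at 109, 131, 22.3, 184 and 109.7 counts per 500000 in endomysial cells, at 6.90, 0.451, 0.129, 8.53 and 1.15 in mural cells and at 22.2, 13.3, 0.16, 15.4 and 4.40 in perimysial cells. The perimysial and endomysial ranges only just missed each other, through the low endomysial value of Cspg4dsRED. Nid2 was lower in mural cells than in fibroblasts by −5.41 ± 0.71 (edgeR, adjusted p = 0.0015) and lower in perimysial than in endomysial cells by −3.59 ± 0.49 (adjusted p = 0.0053), with 5 of 5 strain labels lower. Rtraf, on the other strand, shares 8.45% of the exonic bases of Nid2.

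Of the 10 genes, 8 were called between mural cells and fibroblasts, 2 higher (Lama5, Lamb2) and 6 lower in mural cells (Lama2, Lama4, Lamb1, Lamc1, Nid1, Nid2). Of all genes tested there 15.4% were called. The median log2 difference was −0.46 over all genes tested and −2.11 over the 10. Between perimysial and endomysial cells 7 were called, 1 higher (Lama3) and 6 lower (Lama2, Lama4, Lamb1, Lamc1, Nid1, Nid2), where 5.57% of all genes tested were called. The median was −0.19 over all genes tested and −1.83 over the 10. Both comparisons use the endomysial cells, so they are not independent of each other. Cspg4dsRED was the lowest strain label in endomysial cells for Lama2, Lama4, Lamb1, Lamc1, Nid1 and Nid2; 46 of its 51 endomysial cells lay in cluster 6, and its endomysial cells had a median of 107350 counts, the lowest of the 5 strain labels. The part of either in these levels was not tested.

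**Figure D2:**
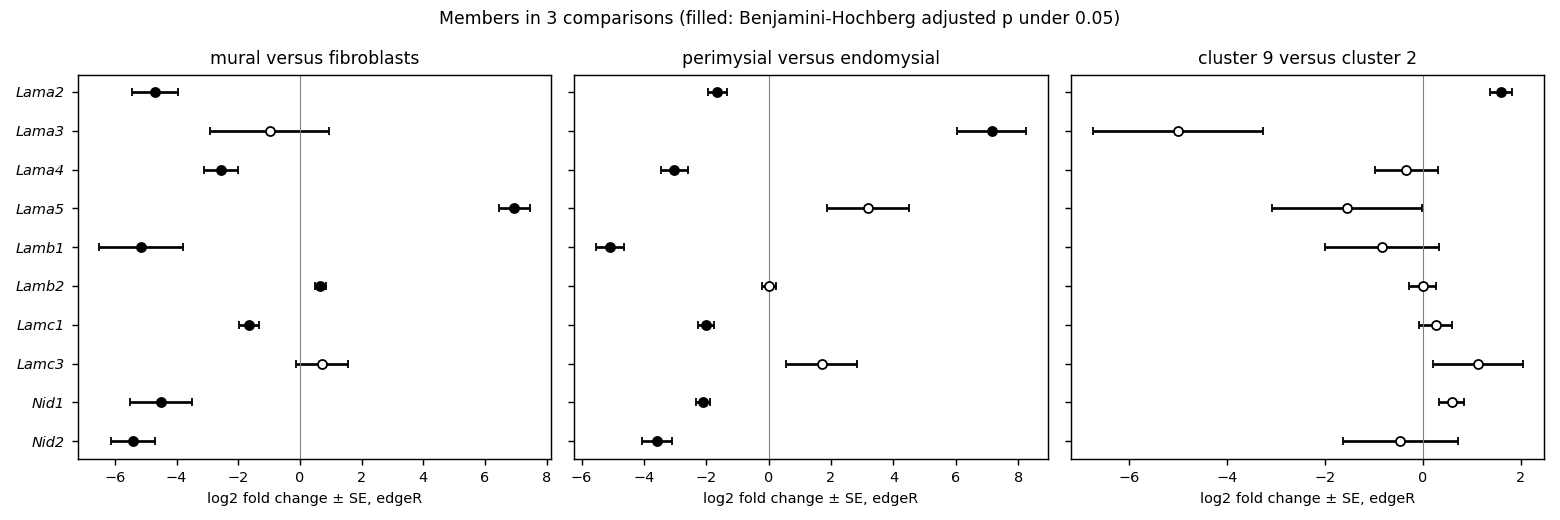
Log2 fold change (x axis, edgeR, on sums of counts per class and strain label) of the 10 genes (y axis) in 3 comparisons, with SE as bars and filled points where the Benjamini-Hochberg adjusted p was under 0.05. Lama5 has the highest value for mural cells at 6.95, Lama3 the highest for perimysial cells at 7.14, and Lama2 is the filled point of cluster 9 against cluster 2 at 1.60.

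Endomysial clusters differed most in Lamb1. Cluster 3 held 519 counts per 500000 in Acta2GFP, 397 in C57BL6, 558 in the pool and 459 in PdgfrbGFP. Cluster 1 held 111 to 222, cluster 6 57.8 to 106 and cluster 8 33.8 to 138. Cluster 3 lay above the other 3 clusters in every strain label. Cluster 5, which was too small for the test, held 0.886 in C57BL6, 5.10 in the pool and 3.10 in PdgfrbGFP, below all other endomysial clusters, while its Lamb2 was 467, 553 and 387, the highest cluster mean of that gene. In cluster 5, 24 of 31 cells thinned to 50000 counts had Lamb2 without Lamb1, and in cluster 3 this was 35 of 437.

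By the test of any difference between clusters 1, 3, 6 and 8, 7 of the 9 members tested were called, where 5.18% of all genes tested were. The smallest adjusted p were those of Lamb1 (0.0004, edgeR with Benjamini-Hochberg adjustment), Nid2 (0.00075) and Nid1 (0.0009), which kept their calls under all alternatives run. Nid2 stood highest in cluster 3, at 132 to 254, and lowest of these clusters in cluster 1, at 34.6 to 71.4. Nid1 had another order, with 1048 to 1541 in cluster 1 and 1009.5 to 1354 in cluster 3 against 282 to 645 in cluster 6. Cluster 1 thus stood high in Nid1 and low in Nid2. Lamc1, at 355 to 649.6 in cluster 3 and 154.5 to 206 in cluster 6, had an adjusted p of 0.0035 that rose to 0.06 without C57BL6, 0.0863 without the pool and 0.069 without PdgfrbGFP.

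Lama2 (adjusted p = 0.0156), Lama4 (0.0407) and Lamc3 (0.0142) were also called between these clusters by edgeR, each with losses when a strain label was left out. Without the pool their adjusted p were 0.127, 0.237 and 0.117, and without PdgfrbGFP those of Lama2 and Lama4 were 0.209 and 0.414. Without C57BL6 Lama2 had 0.0667 and Lamc3 0.129, and without the strain label as a block Lama2 had 0.0641 and Lama4 0.121. Lamc3 was found in cluster 3 at 3.32 to 22.9 counts per 500000 and at 0.224 or less in cluster 1. Lama5 (adjusted p = 0.61) and Lamb2 (0.43) were not called. Lama3 did not pass the filter on low counts.

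**Figure D3:**
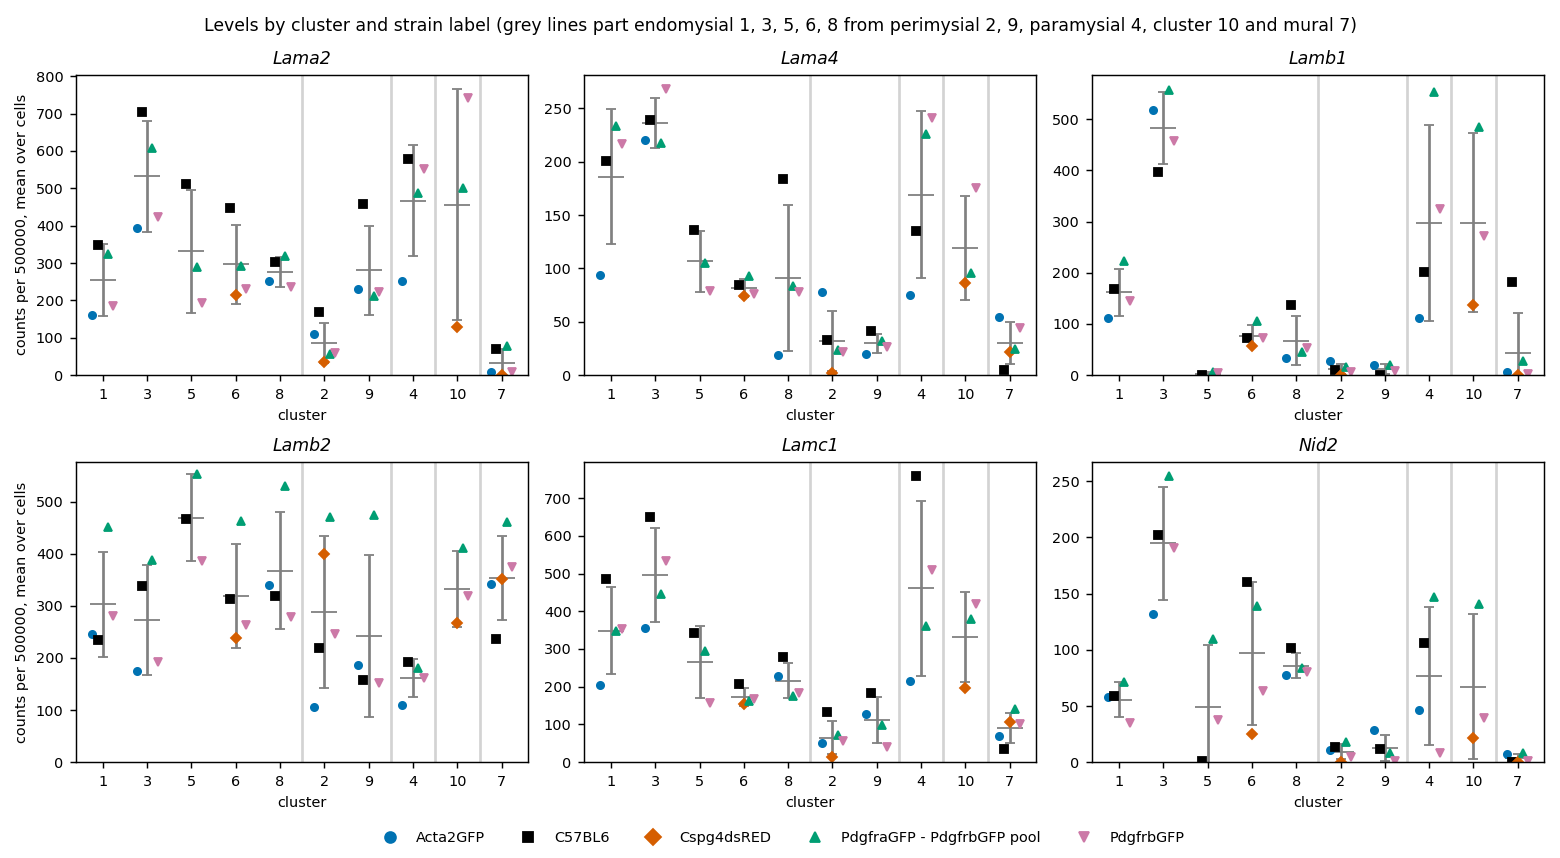
Level of 6 genes (y axis, linear, counts per 500000 counts of a cell, averaged over cells) in the 10 clusters (x axis, grouped by class with grey lines between classes); each point is 1 strain label with 3 or more cells, and the grey dash and bar are mean and SD, with bars below 0 not drawn. Lamb1 is highest in cluster 3 (397 to 558) and lowest of the endomysial clusters in cluster 5 (0.886 to 5.10), where Lamb2 is at 387 to 553.

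The perimysial clusters differed in Lama2. It stood at 231, 457, 211.3 and 222 counts per 500000 in cluster 9 and at 111, 169, 57.7 and 59.6 in cluster 2, in Acta2GFP, C57BL6, the pool and PdgfrbGFP. All values of cluster 9 lay above all values of cluster 2, and the log2 difference was 1.60 ± 0.22 (edgeR, adjusted p = 0.0195, higher in 4 of 4). The call was lost without C57BL6 (adjusted p = 0.124), the pool (0.116) or PdgfrbGFP (0.0923). It was the 1 call among the 10 genes, where 0.920% of all genes tested were called. Lama3 went the other way, at 0.751, 0, 3.19 and 4.17 in cluster 9 and 14.025, 29.1, 16.1 and 12.3 in cluster 2, without overlap, but was not called (−5.01 ± 1.74, adjusted p = 0.37). DESeq2 called it (adjusted p = 0.00019).

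For paramysial cells and cluster 10 no member passed the main test against endomysial cells. Of the 8 members that could be tested, 0 were called in either comparison by edgeR, where 0.0963% and 0.442% of all genes tested were called. For paramysial cells, 2 of the 8 had an unadjusted p under 0.05, and DESeq2 called 1 and limma 0. For cluster 10, 0 had such a p, and DESeq2 and limma called 0. Lamc3, the member DESeq2 called (adjusted p = 0.0011), stood at 0, 0, 0.653 and 0 counts per 500000 in paramysial and at 2.16, 6.31, 8.96 and 4.62 in endomysial cells of Acta2GFP, C57BL6, the pool and PdgfrbGFP. The groups did not overlap, and edgeR gave −6.60 ± 2.02 (adjusted p = 0.39). Lamb2 stood at 110, 193, 181 and 162 counts per 500000 in paramysial cells, below endomysial cells in each of 4 strain labels (−0.74 ± 0.31, adjusted p = 0.69). Lamb1 in paramysial cells was 112, 201, 552 and 324, within and above the endomysial range. With 3 to 46 paramysial cells per strain label and 8 to 37 cells of cluster 10, small differences were not detectable.

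Soleus and gastrocnemius were compared in endomysial cells of the pool and PdgfrbGFP. The fit rested on 4 sums from 2 strain labels. Of 16337 genes tested edgeR called 0 (percent called 0), with 807 at an unadjusted p under 0.05, and DESeq2 called 111. Of the 9 members tested 0 were called by edgeR, DESeq2 or limma, and 1, Nid2, had an unadjusted p under 0.05 by edgeR (log2 difference −0.61 ± 0.22, adjusted p = 0.97). The muscles of the pool had a plate each.

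Levels of different genes were then set side by side per kilobase, as the share of each chain among its paralogs. Among the 4 alpha chains, Lama5 made up 76.95 ± 7.67% of the mural signal per kilobase of merged exons (SD, n = 5) and 64.9 ± 8.16% per kilobase of the longest transcript. Lama2 led in all fibroblast classes, with 62.9 ± 4.44% in endomysial and 70.4 ± 13.8% in perimysial cells, and Lama4 followed with 36.9 ± 4.38% in endomysial cells. Of the beta chains, Lamb2 made up 97.1 ± 2.97% in perimysial, 92.6 ± 13.8% in mural and 66.7 ± 11.3% in endomysial cells. In paramysial cells the beta chains were even on average, with Lamb1 at 49.5 ± 12.96% (n = 4), or 60.3 ± 12.2% by the longest transcript. Outside the pool this rested on few cells. Without its highest cell, the Lamb1 level fell from 201 to 2.12 in C57BL6 (3 cells) and from 112 to 24.6 in Acta2GFP (6 cells). It fell from 324 to 113 in PdgfrbGFP (4 cells) and from 552.5 to 534.5 in the pool (46 cells). Lamc1 made up 98.4 ± 1.26% of the gamma chains in endomysial cells and 77.1 ± 14.2% in perimysial cells, and Nid1 85.7 ± 3.60% of the nidogens in endomysial cells.

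**Figure D4:**
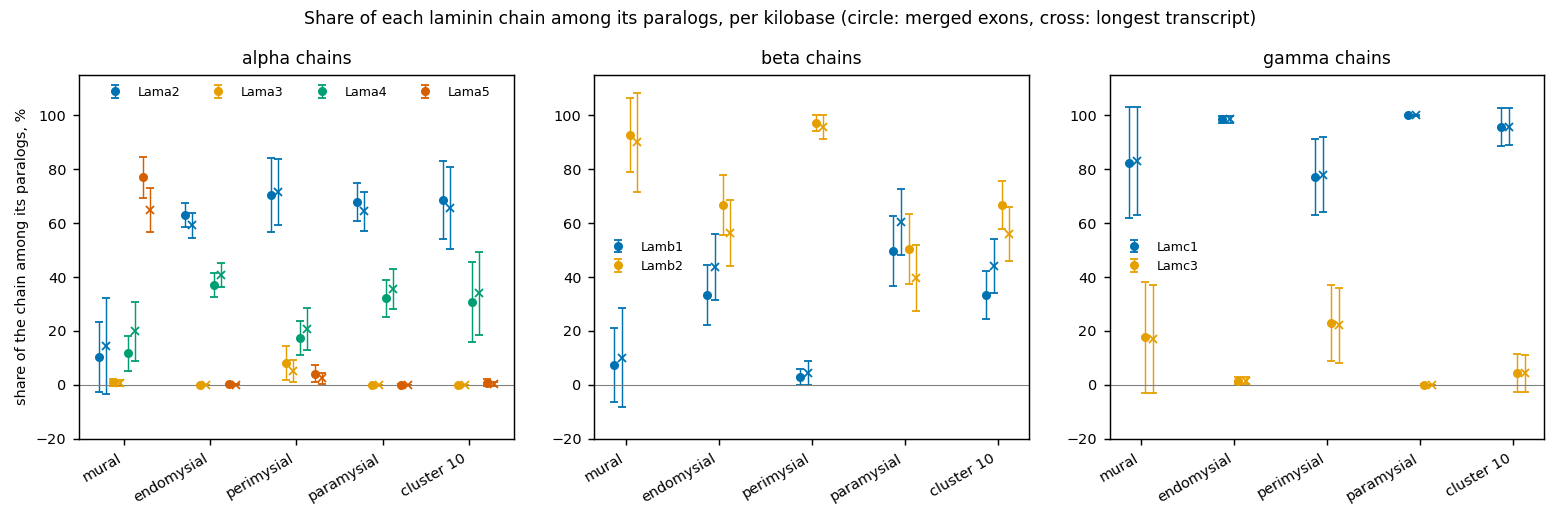
Share of each laminin chain among its paralogs (y axis, percent of the summed level per kilobase) in 5 cell classes (x axis), as mean and SD over 3 to 5 strain labels, with circles for merged exons and crosses for the longest transcript. Lama5 makes up 76.95% of the mural alpha chains and Lamb2 97.1% of the perimysial beta chains.

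Which trimers a cell could build was counted in cells thinned to 50000 counts, as the share of cells with a count of all 3 chains; 4 cells had fewer counts and were left out. Presence of transcripts does not show that a trimer is made. In mural cells laminin-521 was the most frequent of the 21 trimers tried, in 40.5 ± 18.6% of cells (SD, n = 5 strain labels), followed by laminin-421 in 22.1 ± 16.4%. Laminin-521 was found in 4.71 ± 5.23% of endomysial cells. Any Lama5 count was found in 5.18 ± 5.85% of endomysial cells, likewise as a mean over strain labels, and whether free RNA gave these counts was not tested.

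Other trimers led in fibroblasts, though laminin-421 was found in both mural and endomysial cells. Laminin-221 led in endomysial cells with 66.96 ± 29.4%, ahead of laminin-211 with 55.7 ± 29.2%, laminin-421 with 53.8 ± 28.0% and laminin-411 with 47.2 ± 28.2%, with spreads that overlapped. Perimysial cells had laminin-221 in 44.9 ± 28.2% and laminin-211 in 18.4 ± 17.7%. In paramysial cells laminin-211 led with 91.1 ± 16.3% (n = 4). Over the strain labels laminin-221 ran from 15.7% to 87.75% of endomysial cells.

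A stricter limit was at least 100 counts per 500000 of each chain. There laminin-221 was found in 38.0 ± 20.6% of endomysial and 10.6 ± 9.09% of perimysial cells, laminin-211 in 36.6 ± 27.3% of paramysial cells and laminin-521 in 4.40% of mural cells.

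**Figure D5:**
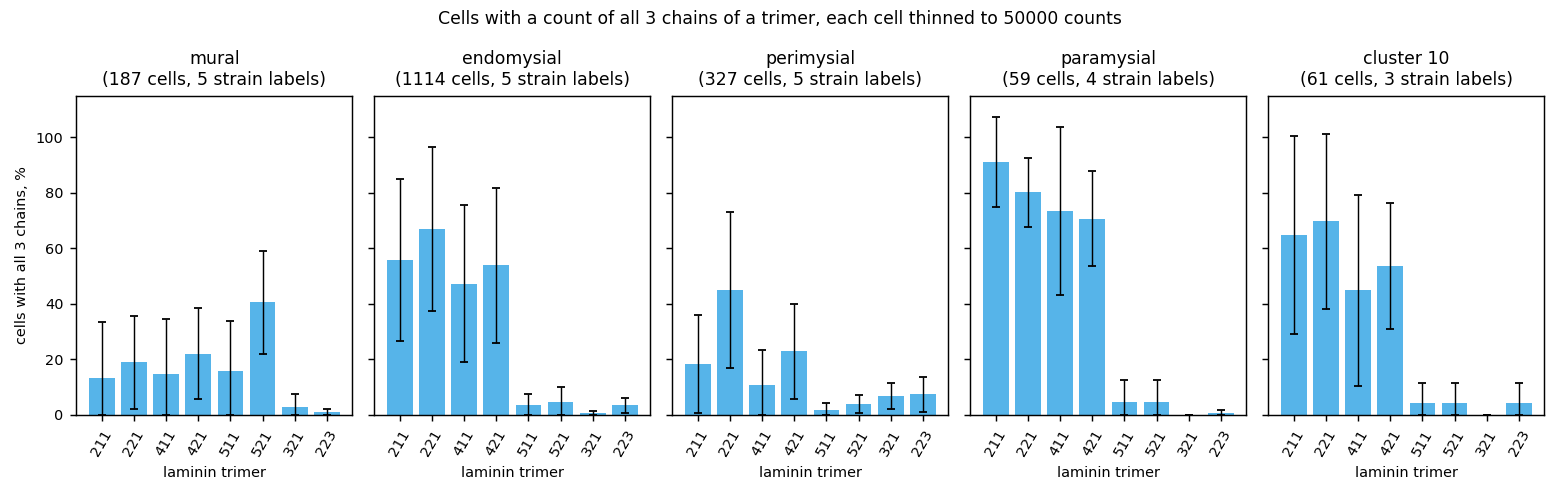
Share of cells (y axis, percent) with a count of all 3 chains of 8 of the 21 trimers (x axis) in 5 cell classes, each cell thinned to 50000 counts; bars are means and lines SD over strain labels, with the lower part of a line ending at 0. Laminin-521 is the tallest bar in mural cells (40.5%), laminin-221 in endomysial (66.96%) and perimysial cells (44.9%), and laminin-211 in paramysial cells (91.1%).

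Within single cells, chains of a family were combined in different ways. Of the thinned cells of each class, 68.9% of 1114 endomysial cells had counts of 2 alpha chains and 2.87% had none. Of 187 mural cells 23.5% had none, 35.3% had 1 and 30.5% had 2. Both Lama2 and Lama4 were found in 791 endomysial cells, and Lama2 alone of the pair in 252. Of 327 perimysial cells 64.5% had Lamb2 without Lamb1, 20.5% had both and 4.89% had Lamb1 without Lamb2. Median depth differed between the classes, and all shares were taken at the same number of counts. Thinning sets reads alike, not the RNA molecules caught per cell. Before thinning, median genes per cell ran from 2696 in cluster 10 to 6903 in paramysial cells. By strain label they ran from 2283 in Cspg4dsRED, with 74 of the 187 mural cells, to 5443 in Acta2GFP. The part of this in the shares was not tested. Free RNA can also give counts of a chain, and its part was not tested.

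The order of the levels over classes was as follows. Lama2 and Lama4 were highest in paramysial cells, but paramysial cells, cluster 10 and endomysial cells did not differ beyond their spread over shared strain labels in either gene. For Lama5, mural cells stood apart from the next class in 3 of 3 shared strain labels. Lamb1 had means of 298 ± 175 counts per 500000 in cluster 10 (n = 3), 298 ± 191 in paramysial cells (n = 4) and 246 ± 116 in endomysial cells (n = 5). At the low end of Lamb1, mural and perimysial cells did not differ beyond their spread. For Lamb2, endomysial and perimysial cells did not differ beyond their spread, with means of 289 and 288. Nid1 fell into 3 levels, with paramysial, endomysial and cluster 10 cells together, perimysial cells below them and mural cells lowest, each step beyond the spread.

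Likeness of pattern was measured as Pearson's r over the log2 CPM of 40 cluster and strain label sums among 16799 genes, as a description, since these profiles share libraries and clusters. The gene most like Lama2 was Nid1 (r = 0.91), and the reverse held. Lama4 and Lamc1 were likewise nearest to each other (r = 0.84). Lama5 was nearest to Pln (r = 0.84), phospholamban, a regulator of the calcium pump in heart and smooth muscle, followed by Ccdc85a and Gm43236 (both 0.83). Lamb1 was nearest to Ccl11 (0.84), an eosinophil chemokine, Col5a3 (0.84) and Dact1 (0.76), and Nid2 to Gli3 (0.83), Nav1 (0.82) and Colgalt2 (0.81). No gene was close to Lamb2, whose nearest was Gm47308 at 0.64. Lama3 was nearest to Rnf144b (0.75) and Lamc3 to Tspan2 (0.78).

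The receptors that hold laminins differed between mural cells and fibroblasts by the same edgeR test. Of 14 tested, mural cells had 7 higher and 2 lower, where 15.4% of all genes tested were called. The median log2 difference over the 14 was 1.07. Bcam, the Lutheran protein, which binds the Lama5 chain, stood at 873 ± 458 counts per 500000 in mural and 9.08 ± 11.4 in endomysial cells (log2 difference 7.96 ± 0.49, adjusted p = 9.9e-05). Higher too were Sgca, alpha-sarcoglycan of the dystrophin complex (7.65 ± 0.62, adjusted p = 0.0002), Itga7, a laminin-binding integrin subunit of muscle (6.40 ± 0.54, adjusted p = 0.00023), and Dmd, dystrophin (3.53 ± 0.51, adjusted p = 0.0024). Dag1, the dystroglycan core, was not called, with 152 ± 69.8 in mural and 151 ± 69.4 in endomysial cells (adjusted p = 0.27). Of 12 enzymes that build the laminin-binding sugar of dystroglycan, 1 was called, B3galnt2, higher in mural cells (2.48 ± 0.58, edgeR, adjusted p = 0.022). That count is not above the 15.4% called over all genes tested. Between perimysial and endomysial cells 1 of 13 receptors was called, Itgb1, the beta-1 integrin, higher by 0.54 ± 0.12 (edgeR, adjusted p = 0.0408), and 0 of 12 sugar enzymes. Over all genes tested there 5.57% were called, and 1 call among 13 is near that share.

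Of 12 other basement membrane genes, 7 were called between perimysial and endomysial cells, 6 of them lower. The share called over all genes tested there was 5.57%. The lowest adjusted p were those of Smoc2, a calcium-binding matrix protein (−4.24 ± 0.32, adjusted p = 0.00047, edgeR), Fbln2, fibulin-2 (−1.77 ± 0.16, adjusted p = 0.00096), Col4a1, a chain of type IV collagen (−2.08 ± 0.27, adjusted p = 0.0044), and Hspg2, perlecan (−0.97 ± 0.14, adjusted p = 0.0069). Between mural cells and fibroblasts 6 of the 12 were called, 2 higher and 4 lower, among them Smoc2 (−5.53 ± 0.48, adjusted p = 0.00026), Fbln2 (−6.09 ± 0.58, adjusted p = 0.00036) and Col15a1, a collagen beside basement membranes (−5.76 ± 1.06, adjusted p = 0.0075). Col4a1 was not called there (−0.53 ± 0.22, edgeR, adjusted p = 0.17), where 15.4% of all genes tested were. Between the endomysial clusters 9 of the 12 were called, as were 3 of 15 receptors and 0 of 12 sugar enzymes. Of all genes tested there 5.18% were called. Of laminin chains outside the 10, Lama1 did not pass the filter in any comparison and Lamb3 only between the endomysial clusters, where it was not called (adjusted p = 0.87).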

How the data were processed

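Single cells of skeletal muscle were sorted and sequenced by Smart-seq2, without molecular identifiers. Per the study's methods the authors used bcl2fastq, Trim Galore, TopHat2 with Bowtie, and featureCounts on GRCm38, and deposited raw counts of reads per gene and cell; whether counting used strand is not given in the sources used here. ERCC spike-ins, 1.31% of all counts, were left out, as was 1 column without a label.

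Counts were scaled to 500000 per cell for levels and summed per class and strain label, with at least 3 cells, for tests. The main test was edgeR 4.0.16 (quasi-likelihood, TMM, filterByExpr) in R 4.3.3 with the strain label as a block and Benjamini-Hochberg adjustment over all genes tested at 0.05. DESeq2 1.42.0 and limma 3.58.1 were alternatives, as were RLE size factors, no filter, no block, plates as units, at least 5 cells and each strain label left out. The strain label was the block of the main design; within a comparison, deviations of the same strain label correlated at 0.0863 to 0.173 for mural cells and 0.144 to 0.299 for perimysial cells. Cells were thinned to 50000 counts for shares of cells. Shares per kilobase used gene lengths of GENCODE M21. The test was checked on simulated data. The genes named were the 10 members, up to 4 genes of each list and comparison with the smallest adjusted p, and for likeness the 3 highest r; Dag1, Lamb3 and, for mural cells, Col4a1 were named after their values were seen. Members and lists were chosen with earlier results of these data known. Strain labels may be technical replicates of few animals, so p-values measure only the spread between them, and intervals cover counting error only. Some results are not reported here.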

Additional observations from a re-analysis of the deposited data

Results flagged for a closer look

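In 6 groups a value stood apart from the other strain labels by Dixon's gap test, out of 40 groups tested. Chance gives about 1 in 20 for normally spread values. That rate does not hold for groups near 0, where 1 value above 0 with all others at 0 is always flagged. Lama3 in mural cells was highest in Acta2GFP, at 8.89 counts per 500000, with the next at 2.40, and rested on 4 of 56 cells. Lama4 in endomysial cells was lowest in Cspg4dsRED, at 77.2, with the next at 164. Lamb1 in mural cells was highest in C57BL6, at 182, with the next at 26.7, and rested on 3 of 9 cells. In paramysial cells Lama3 stood at 0.411 in Acta2GFP against 0 in the others, Lama5 at 0.957 in Acta2GFP against 0.162 at most, and Lamc3 at 0.653 in the pool against 0. Their causes were not tested.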

How the results depend on the processing

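No called member changed sign under any alternative run. Without the replicate block the members called fell to 5 for mural cells, 6 for perimysial cells, 5 between endomysial clusters and 0 for cluster 9 against cluster 2, and Lamb1 in mural cells had a log2 difference of −2.15 (edgeR, adjusted p = 0.291). DESeq2 called 2 members for cluster 9 and 1 for paramysial cells. Leaving out 1 strain label gave 4 to 8 members called for mural cells, 5 to 7 for perimysial cells, 0 to 1 for cluster 9 and 3 to 7 between endomysial clusters. The causes were not tested.

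Over all genes, DESeq2 called 4336 (mural), 2068 (perimysial), 796 (paramysial), 993 (cluster 10), 848 (cluster 9), 111 (soleus) and 1940 (endomysial clusters). Limma, with cells weighted alike, called 71 (paramysial), 157 (cluster 10), 215 (cluster 9) and 1315 (endomysial clusters). Plates as units gave 1294 (perimysial), 26 (paramysial), 111 (cluster 10), 41 (cluster 9) and 1602 (endomysial clusters). No filter on low counts gave 274 (cluster 10) and 345 (cluster 9), and no block 8 (paramysial). Without the pool the counts were 436 (perimysial), 109 (cluster 10), 35 (cluster 9) and 240 (endomysial clusters). With another strain label left out they ran from 1230 to 2257 (mural), 395 to 1416 (perimysial), 11 to 64 (paramysial), 0 to 216 (cluster 10), 35 to 50 (cluster 9) and 224 to 819 (endomysial clusters).

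By the longest transcript, Lama5 made up 64.9% of mural alpha chains and Lamb2 55.97% of the beta chains of cluster 10. At 100 or more counts per 500000, laminin-211 was in 36.6% of paramysial, laminin-221 in 10.6% of perimysial and laminin-521 in 4.40% of mural cells.

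Log2 differences that turned were all of members without a call. By limma they were 0.21 (Lamc3) and −0.071 (Nid1) in cluster 10, −0.17 (Lama4) and −0.10 (Lamb1) in paramysial, −0.0676 (Lamb2) in perimysial, and 0.0336 (Lamc1) and −0.16 (Lamc3) in soleus cells. Without a filter they were −0.059 (Nid1, cluster 10), −0.11 (Lama4, paramysial) and −0.00875 (Lamb2, perimysial). With 5 cells or more, paramysial Lama2 was −0.44, Lama4 −0.24, Lamb1 −0.00857, Lamc1 −0.29 and Nid1 −0.21. By plate they were −0.00729 (Lama4, paramysial), −0.00855 (Lamc1, cluster 9) and −0.98 (Lamc3, mural). Lamb2 in cluster 9 was 0.0419 by DESeq2 and 0.0427 by RLE size factors. Without the replicate block they were 0.46 (Nid2, cluster 9), −0.091 (Lama2, soleus) and −0.64 (Lamc3, soleus). Without the pool they were 0.0956 (Lama3, mural), −0.0405 (Lamb2, perimysial), −0.11 (Lama4, paramysial), 3.07 (Lamc3, cluster 10), and 0.0191 (Lamb2) and 0.0431 (Nid2) in cluster 9. With another strain label left out, the ranges were −2.09 to 0.0206 (Lama3, mural), −0.17 to 0.15 (Lamb2, perimysial), −0.18 to 0.42 (Lama2), −0.30 to 0.18 (Lama4) and −0.00525 to 0.45 (Lamc1) in paramysial cells, −0.20 to 0.72 (Lama2), −0.051 to 0.0893 (Nid1) and −0.61 to 0.20 (Nid2) in cluster 10, and −0.62 to 0.31 (Lama4), −0.32 to 0.20 (Lamb2) and −1.32 to 0.28 (Nid2) in cluster 9.

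No leave-one-out fit was run for soleus, as no residual degrees of freedom were left. Shallow cells and classes of few cells limit what was detectable.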
